A study of Mus musculus with 8 samples.

Results

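Synaptic vesicle proteins and synucleins are described here by 9 genes of the long-read gene count table: the synaptotagmins Syt1 and Syt11, synaptophysin (Syp), the synapsins Syn1 and Syn2, the SV2 glycoproteins Sv2a and Sv2b, and the synucleins Sncb and Sncg. They were chosen by name, as the rows whose Ensembl identifier maps to these symbols, and all 9 of 9 were found among the 22430 genes of the table. The libraries come from brain hemispheres of male C57Bl/6JRj mice, an inbred strain, with 4 young adult mice of 6 months (6m) and 4 aged mice of 24 months (24m), 1 library per mouse. The labels name no genetic modification or treatment, and age is the only difference between the groups that they state. RNA was read on Oxford Nanopore (ONT) devices, and the study's methods describe direct sequencing of RNA, while the sample labels describe a kit for cDNA; the methods were followed here.

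Synaptic vesicles store neurotransmitter in nerve terminals and release it when calcium enters. Synaptotagmins include the calcium sensor of release, synaptophysin and the SV2 glycoproteins span the vesicle membrane, and synapsins hold vesicles in a reserve cluster on the cytosolic side. Synucleins are small proteins of the terminal that bind vesicle membranes. In whole brain, these genes are known mainly as neuronal genes and are widely used as markers of presynaptic terminals.

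Library totals were 843706, 573152, 838483 and 818963 counts in the 6m libraries 1 to 4, and 660398, 903595, 742951 and 1255424 counts in the 24m libraries 1 to 4. Values below are CPM, counts set to a common library size after scaling by the TMM method of edgeR, and values listed for a gene follow the order of the libraries 1 to 4 at 6m and then 1 to 4 at 24m. Depth limits the less abundant genes: Sv2b held between 11 and 18 counts in the 6m libraries, whereas Sncb held between 593 and 965. In the principal component analysis of log2 CPM, PC1 (39.4% of the variance) separated the ages, and on PC2 (17.2%) the aged replicate 1 stood apart with a score of 38.4, against scores between -17.5 and 7.48 in the other 7 libraries. Results are therefore also given without this library.

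The ages were compared by the quasi-likelihood test of edgeR on the 9375 genes whose mean count exceeded 5, a filter that all 9 genes passed. A gene is called changed when its Benjamini-Hochberg adjusted p over all tested genes was at most 0.05 and its absolute log2FC, the log2 ratio of 24m to 6m, was at least 0.58. Of the 9 genes, 5 were changed and upregulated at 24m, namely Sv2b, Sv2a, Syp, Syt11 and Syn2, beside 10.3% of all tested genes called in that direction. Sncg was the 1 gene changed and downregulated, beside 4.17% of all tested genes. Both directions together called 6 of the 9 genes and 14.5% of all tested genes. Syn1 and Syt1 had adjusted p below the limit in edgeR with log2FC of 0.56 each, short of the fold limit, and Sncb had neither. In 6 of the 9 genes every 24m library lay above every 6m library, beside 11.1% of all tested genes, and in 1 gene every 24m library lay below, beside 9.96%. The median log2FC was 0.61 over the 9 genes and -0.00 over all tested genes. Since the genes were picked with results of these data known, these shares are a description and nothing is inferred from them about presynaptic genes in general.

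In RNA of a whole hemisphere, fewer cells of a type and less RNA per cell cannot be told apart, and the same holds for more cells and more RNA. Of all tested genes, 968 were changed and upregulated and 391 were changed and downregulated. With library sizes alone this split was 1218 to 223, whereas with RLE factors, another scaling, it was 972 to 378. With limma-voom after quantile normalization, which changes the test as well as the scaling, it was 701 to 484. Library sizes alone moved the median log2FC of all tested genes to 0.10, and each log2FC of the 9 genes has to be read relative to that median under that scaling. The direction of each of the 9 genes was the same under all of these alternatives.

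**Figure D1:**
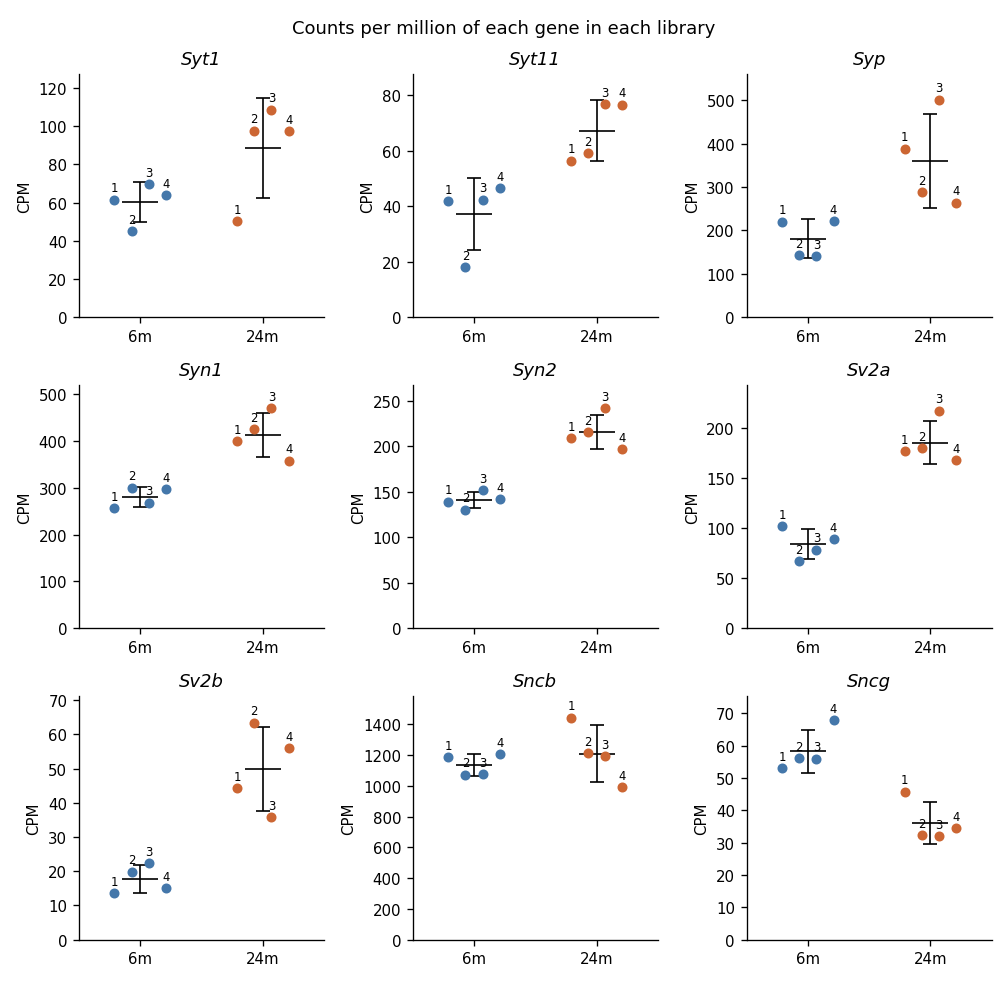
CPM (vertical axes, from 0) of each of the 9 genes in the 4 libraries of 6m (blue) and the 4 of 24m (orange). Numbers are replicates, the horizontal bars are means and the error bars are SD. The ages are separated without overlap for Syt11, Syp, Syn1, Syn2, Sv2a, Sv2b and Sncg, and they overlap for Syt1 and Sncb.

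Promoter sequences are shown for the 3 genes with the highest log2FC (Sv2b, Sv2a and Syp), for Sncg as the gene that fell, and for Syn1, whose window holds a motif that none of the other 8 genes has. RefSeq windows of 300 bases span each gene's start, are written 5′ to 3′ on the gene's strand, and use the build GRCm38.p6; their coordinates are not to be set beside the GRCm39 positions given for the genes. All 9 genes matched, with 14 windows, and for genes with several windows the most upstream is used. The windows lie at chr7:75309213-75309512 (minus strand) for Sv2b, chr3:96180977-96181276 (plus strand) for Sv2a, chrX:7638330-7638629 (plus strand) for Syp, chr14:34374620-34374919 (minus strand) for Sncg and chrX:20920869-20921168 (minus strand) for Syn1. Capitals mark any of the motifs searched on both strands: the GC box GGGCGG, the TATA box TATAAA, the CCAAT box CCAAT, the E-box CACGTG and the cAMP response element TGACGTCA.
Sv2b: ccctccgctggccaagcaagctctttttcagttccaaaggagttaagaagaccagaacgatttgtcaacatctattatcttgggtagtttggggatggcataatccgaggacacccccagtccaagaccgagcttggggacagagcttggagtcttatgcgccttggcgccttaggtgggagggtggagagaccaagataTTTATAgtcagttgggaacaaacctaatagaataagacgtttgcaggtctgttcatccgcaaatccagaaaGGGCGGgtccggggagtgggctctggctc
Sv2a: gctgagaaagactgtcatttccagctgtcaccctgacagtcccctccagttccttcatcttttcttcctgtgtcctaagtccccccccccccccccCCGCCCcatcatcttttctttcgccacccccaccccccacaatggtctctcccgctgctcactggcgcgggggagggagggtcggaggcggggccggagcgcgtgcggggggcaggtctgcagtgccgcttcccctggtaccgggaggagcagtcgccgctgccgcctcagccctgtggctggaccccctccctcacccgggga
Syp: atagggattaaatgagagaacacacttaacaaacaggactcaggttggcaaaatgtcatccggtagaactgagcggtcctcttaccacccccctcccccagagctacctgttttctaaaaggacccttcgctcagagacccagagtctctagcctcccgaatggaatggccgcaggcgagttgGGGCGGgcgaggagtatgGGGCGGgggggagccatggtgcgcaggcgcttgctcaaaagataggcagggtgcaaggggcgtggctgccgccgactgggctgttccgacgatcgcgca
Sncg: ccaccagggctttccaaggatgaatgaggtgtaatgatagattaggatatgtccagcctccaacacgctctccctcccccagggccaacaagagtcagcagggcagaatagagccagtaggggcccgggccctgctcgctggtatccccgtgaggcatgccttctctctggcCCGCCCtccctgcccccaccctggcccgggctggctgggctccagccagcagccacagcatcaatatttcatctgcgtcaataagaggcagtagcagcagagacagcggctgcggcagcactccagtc
Syn1: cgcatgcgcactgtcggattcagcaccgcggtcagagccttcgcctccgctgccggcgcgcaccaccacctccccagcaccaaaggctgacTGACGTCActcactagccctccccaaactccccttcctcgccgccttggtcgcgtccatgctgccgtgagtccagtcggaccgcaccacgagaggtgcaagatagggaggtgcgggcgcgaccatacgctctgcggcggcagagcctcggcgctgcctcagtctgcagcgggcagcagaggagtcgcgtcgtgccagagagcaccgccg

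The GC box was found in the most upstream window of 8 of the 9 genes, all but Syn1, and in 35.7% of all 32851 promoter windows. It therefore stands in windows of genes that rose, in that of Sncg, which fell, and in that of Sncb. The cAMP response element occurred in the window of Syn1 and in 1.79% of all windows. The TATA box was present for Sv2b (13.6% of all windows), the CCAAT box for Syt1 and Sncb (37.4%), and the E-box for none of the 9 most upstream windows (7.15%), although a further window of Sv2b has it, as a further window of Syn2 has the CCAAT box. GC content of the 9 windows had a median of 61.3%, from 51.3% for Sv2b to 68.3% for Syn1, against a median of 52.7% over all windows. The observed to expected ratio of CpG dinucleotides ran from 0.323 in Sncg to 0.957 in Syn1, with a median of 0.532 for the 9 genes and 0.384 for all windows. These matches are descriptions of letters in a window, not of sites in use.

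Of the synaptotagmins, Syt11 rose and Syt1 was short of the fold limit. Syt1 (ENSMUSG00000035864; GRCm39 chromosome 10, 108333505 to 108846856, minus strand), the calcium sensor for fast transmitter release, had 61.5, 45.2, 69.7 and 64.0 CPM at 6m, against 50.3, 97.7, 108.8 and 97.4 CPM at 24m. In 3 aged libraries it lay above every young adult library, and the aged replicate 1 lay among the young adult values, so the ages overlapped. Its mean was 60.1 ± 10.5 CPM at 6m, against 88.6 ± 26.0 CPM at 24m (SD over the 4 libraries of an age, as for all means below), with a log2FC of 0.56 (SE 0.187, edgeR adjusted p = 0.0325). Without the aged replicate 1, its log2FC was 0.73 (edgeR adjusted p = 0.000607) and Syt1 was called changed; without the young adult replicate 3 it was called as well, at 0.64 (edgeR adjusted p = 0.0382). With more than 5 counts required in every library (0.61) Syt1 also passed both limits. It did so with no filter on low counts (0.58) and with library sizes alone (0.67) too, but relative to the median of all genes tested in those fits it was at 0.55 and 0.57, short of the fold limit. In 9 of 16 alternatives the adjusted p of Syt1 was over 0.05: with DESeq2 on raw counts (0.0664) and after quantile normalization (0.0772), with limma-voom (0.0810) and in 6 of the 8 edgeR fits with a library left out. Over all alternatives it ran from 0.000607 to 0.102.

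Syt11 (ENSMUSG00000068923; chromosome 3, 88632134 to 88682471, minus strand) encodes a synaptotagmin that does not bind calcium. It had 41.9, 18.1, 42.3 and 46.5 CPM at 6m, against 56.4, 59.3, 76.8 and 76.7 CPM at 24m. The young adult replicate 2, with 10 counts, was far below the other young adult libraries, and all aged libraries were above all young adult ones. The change amounted to a log2FC of 0.82 (SE 0.198, edgeR adjusted p = 0.00427), from 37.2 ± 12.9 to 67.3 ± 11.0 CPM. Without the young adult replicate 2 the log2FC was 0.65 (edgeR adjusted p = 0.0137).

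Synaptophysin is an abundant membrane protein of synaptic vesicles. Syp (ENSMUSG00000031144; chromosome X, 7504710 to 7519499, plus strand) had 220.3, 142.8, 140.6 and 221.0 CPM at 6m, against 388.7, 289.0, 501.6 and 263.9 CPM at 24m. Young adult libraries fell into a lower pair (2 and 3) and a higher pair (1 and 4), the aged libraries spread widely, and the ages did not overlap. Synaptophysin rose from 181.2 ± 45.6 to 360.8 ± 108.3 CPM, a fold change of 1.95 (log2FC 0.97, SE 0.167, edgeR adjusted p = 0.000216). Over the 16 alternatives its log2FC ran from 0.77 to 1.11, and it was called in each.

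Both synapsins were higher at 24m with narrow spreads, and they lay near the fold limit on either side of it. Syn1 (ENSMUSG00000037217; chromosome X, 20726750 to 20787397, minus strand), a phosphoprotein that tethers vesicles, had 256.0, 300.2, 267.6 and 296.4 CPM at 6m, against 399.4, 425.2, 469.6 and 357.4 CPM at 24m. Its lowest aged library was above its highest young adult library. From 280.0 ± 21.6 to 412.9 ± 47.0 CPM, the log2FC was 0.56 (SE 0.102, edgeR adjusted p = 0.000386), which is under the limit of 0.58. Syn1 passed the limit in 8 of 16 alternatives: without the young adult replicate 2 (0.60) or 4 (0.60), without the aged replicate 1 (0.58) or 4 (0.65), with DESeq2 (0.63) or limma-voom (0.62) after quantile normalization, with more than 5 counts in every library (0.61) and with library sizes alone (0.67). Relative to the median of all genes tested in the same fit, Syn1 was short of the limit with library sizes alone (0.56) and, narrowly, without the aged replicate 1 (0.577).

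Syn2 (ENSMUSG00000009394; chromosome 6, 115111825 to 115261708, plus strand), the other synapsin described, had 139.1, 130.2, 151.8 and 141.9 CPM at 6m, against 208.8, 215.2, 241.9 and 197.1 CPM at 24m. All aged libraries exceeded all young adult libraries, and the aged replicate 3 was the highest. The mean was 140.8 ± 8.92 CPM at 6m, against 215.8 ± 18.9 CPM at 24m (log2FC 0.61, SE 0.114, edgeR adjusted p = 0.000503). Without the aged replicate 3 the log2FC of Syn2 was 0.55 and the fold limit was no longer met (edgeR adjusted p = 0.00398). Without the young adult replicate 2 it was called, but relative to the median of all genes tested in that fit it was at 0.575, short of the limit.

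The SV2 glycoproteins had the highest log2FC of the 9 genes. Sv2a (ENSMUSG00000038486; chromosome 3, 96088467 to 96106005, plus strand), a transporter-like vesicle glycoprotein and the binding site of the antiepileptic drug levetiracetam, had 102.2, 66.9, 78.4 and 89.2 CPM at 6m. At 24m it had 176.8, 179.9, 217.5 and 168.0 CPM. The ages were far apart, and within each age the highest and lowest library differed by less than the gap between the ages. Sv2a rose from 84.2 ± 15.1 to 185.6 ± 21.9 CPM, a fold change of 2.17 (log2FC 1.12, SE 0.139, edgeR adjusted p = 2.58e-06), and stood at place 52 of all 9375 tested genes by p.

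Sv2b (ENSMUSG00000053025; chromosome 7, 74761975 to 74959131, minus strand), the paralog of Sv2a with the fewest counts of the 9 genes, had 13.5, 19.9, 22.4 and 15.1 CPM at 6m, against 44.2, 63.4, 35.8 and 56.0 CPM at 24m. No aged value reached down to the young adult values, although the aged replicates 2 and 4 were well above 1 and 3. It rose from 17.7 ± 4.13 to 49.9 ± 12.3 CPM, a fold change of 2.88 (log2FC 1.53, SE 0.234, edgeR adjusted p = 4.92e-05). Across the 16 alternatives the log2FC of Sv2b ran from 1.40 to 1.69 and that of Sv2a from 1.04 to 1.23.

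Of the synucleins, Sncg fell and Sncb was not called. Sncb (ENSMUSG00000034891; chromosome 13, 54906660 to 54914432, minus strand), which encodes beta-synuclein, had 1188, 1072, 1074 and 1205 CPM at 6m, against 1443, 1211, 1191 and 992 CPM at 24m. Aged values lay on both sides of the young adult range, with replicate 1 above it, replicate 2 slightly above it and replicate 4 below it. Means were 1135 ± 71.7 and 1209 ± 184.8 CPM, and no difference was detectable (log2FC 0.09, SE 0.0983, edgeR adjusted p = 0.574). The 95% interval of its log2FC, from the standard error, ran from -0.11 to 0.28, so it did not reach the fold limit. Over the 16 alternatives the log2FC of Sncb ran from 0.00 to 0.24, and it was called in none. It was lowest without the aged replicate 1 (edgeR adjusted p = 0.994) and highest with DESeq2 after quantile normalization (DESeq2 adjusted p = 0.102). Without the aged replicate 4 it was 0.19 (edgeR adjusted p = 0.155).

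Sncg (ENSMUSG00000023064; chromosome 14, 34092231 to 34100539, minus strand) encodes gamma-synuclein, a synuclein known from peripheral and some brainstem and motor neurons. It had 52.9, 56.1, 56.0 and 67.8 CPM at 6m, against 45.7, 32.2, 32.0 and 34.5 CPM at 24m. All aged libraries were below all young adult libraries, and the aged replicate 1 was nearest to them. Sncg went from 58.2 ± 6.57 to 36.1 ± 6.51 CPM, a log2FC of -0.71 (SE 0.173, edgeR adjusted p = 0.00459). Without the aged replicate 1 its log2FC was -0.81 (edgeR adjusted p = 0.00158).

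**Figure D2:**
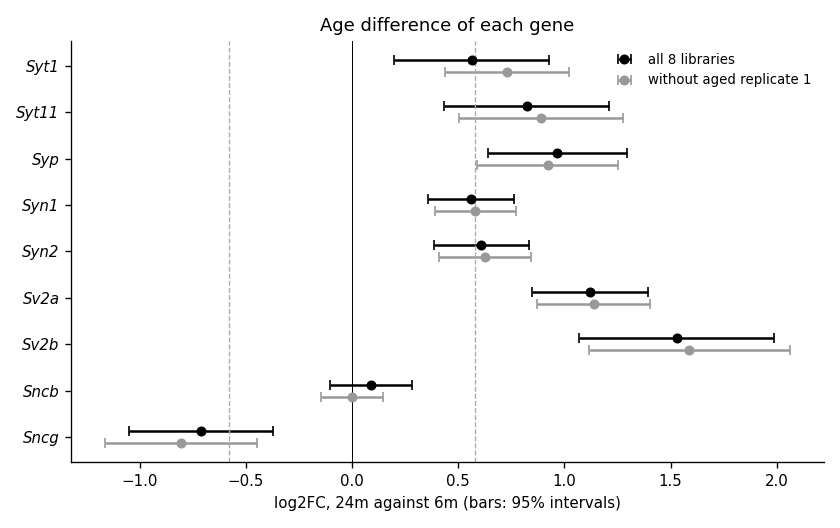
Age difference of each gene as log2FC of 24m against 6m (horizontal axis), from all 8 libraries (black) and without the aged replicate 1 (grey). Bars are 95% intervals from the standard errors and dashed lines are the fold limits of 0.58 in each direction. Sv2b is highest at 1.53, Sncb is at 0.09 and Sncg is at -0.71.

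Leaving out the aged replicate 1 raised the number of upregulated genes among the 9 from 5 to 7, by adding Syt1 and Syn1, and kept Sncg as the 1 downregulated gene. The remaining log2FC without it were 0.89 for Syt11, 0.92 for Syp, 0.62 for Syn2, 1.14 for Sv2a and 1.59 for Sv2b. Within the ages, the same libraries were often at the extreme. Of the 4 aged libraries, replicate 3 was the highest for 6 of the 9 genes (Syt1, Syt11, Syp, Syn1, Syn2 and Sv2a) and the lowest for Sv2b and Sncg, while replicate 4 was the lowest for 5 genes (Syp, Syn1, Syn2, Sv2a and Sncb). Of the young adult libraries, replicate 2, which had the lowest total, was the lowest for 5 genes (Syt1, Syt11, Syn2, Sv2a and Sncb). Sv2b thus ranked the aged libraries differently from Sv2a.

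Summed over the 9 genes, CPM were 2075, 1852, 1903 and 2147 at 6m and 2814, 2573, 2875 and 2243 at 24m. The sums of the ages did not overlap, with the aged replicate 4 only slightly above the highest young adult library. Sncb makes up much of each sum. In the order of mean CPM, with no division by length, the 6m libraries had Sncb, Syn1, Syp, Syn2, Sv2a, Syt1, Sncg, Syt11 and Sv2b, and the 24m libraries had Sncb, Syn1, Syp, Syn2, Sv2a, Syt1, Syt11, Sv2b and Sncg. The order of levels between genes depends on whether length is taken into account. CPM were also divided by the length of the coding sequence of the canonical transcript in kilobases, which raises genes with a short coding sequence, such as Sncg with 369 bases. On this scale Sncb had the highest mean level at 6m (2845 ± 180 CPM per kilobase, SD, n = 4), followed by Syp (192 ± 48.4), Sncg (158 ± 17.8), Syn1 (139 ± 10.8), Syn2 (80.1 ± 5.07), Syt1 (47.6 ± 8.32), Sv2a (37.8 ± 6.76), Syt11 (28.8 ± 9.999) and Sv2b (8.65 ± 2.02). Neighbours in this order whose libraries overlapped at 6m were Syp and Sncg, Sncg and Syn1, Syt1 and Sv2a, and Sv2a and Syt11. At 24m the order was Sncb (3030 ± 463), Syp (383 ± 115), Syn1 (205 ± 23.4), Syn2 (123 ± 10.8), Sncg (97.9 ± 17.6), Sv2a (83.4 ± 9.85), Syt1 (70.1 ± 20.6), Syt11 (52.2 ± 8.51) and Sv2b (24.3 ± 5.98). Overlapping neighbours at 24m were Syn2 and Sncg, Sncg and Sv2a, Sv2a and Syt1, and Syt1 and Syt11. Sncg was at place 3 at 6m and place 5 at 24m per coding length, but at places 7 and 9 by CPM, so it was lower in the order at 24m on both scales. Sv2a was at places 7 and 6 per coding length and at place 5 for both ages by CPM.

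Ratios of counts within a library do not depend on scaling between libraries, and they show whether relatives moved by unequal amounts. The ratio of Sncb to Sncg was 22.4, 19.1, 19.2 and 17.8 in the 6m libraries and 31.6, 37.6, 37.2 and 28.7 in the 24m libraries. Every aged library had a higher ratio than every young adult library, with a difference of 0.78 in mean log2 ratio, and leaving out a library in turn gave differences from 0.72 to 0.85. The 4 pairs were chosen after the values of the genes had been seen, so the ratios are given as descriptions and no p is read from them.

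For the other 3 pairs the ages overlapped. The ratio of Syn1 to Syn2 had a geometric mean of 1.99 at 6m and 1.91 at 24m, ranging from 1.76 to 2.31 and from 1.81 to 1.98 (difference in log2 ratio -0.06). With a library left out this difference ran from -0.12, without the young adult replicate 3, to 0.01, without the young adult replicate 2, so its direction was not stable. Sv2a to Sv2b had 4.79 and 3.79, with ranges of 3.36 to 7.55 and 2.84 to 6.07 (difference in log2 ratio -0.34). This difference was smaller without the young adult replicate 1 (-0.12), the aged replicate 2 (-0.20) or the aged replicate 4 (-0.22), larger without the aged replicate 3 (-0.56) or the young adult replicate 2 (-0.51), and between these without each of the other 3 libraries. Syt1 to Syt11 had 1.70 and 1.28, with ranges of 1.38 to 2.50 and 0.892 to 1.65 (difference in log2 ratio -0.41). It was -0.23 without the young adult replicate 2, -0.24 without the aged replicate 1 and as far as -0.54 without the aged replicate 2. These data do not show that relatives with overlapping ratios moved by equal amounts, and the larger log2FC of Sv2b than of Sv2a is within the spread of their ratio.

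**Figure D3:**
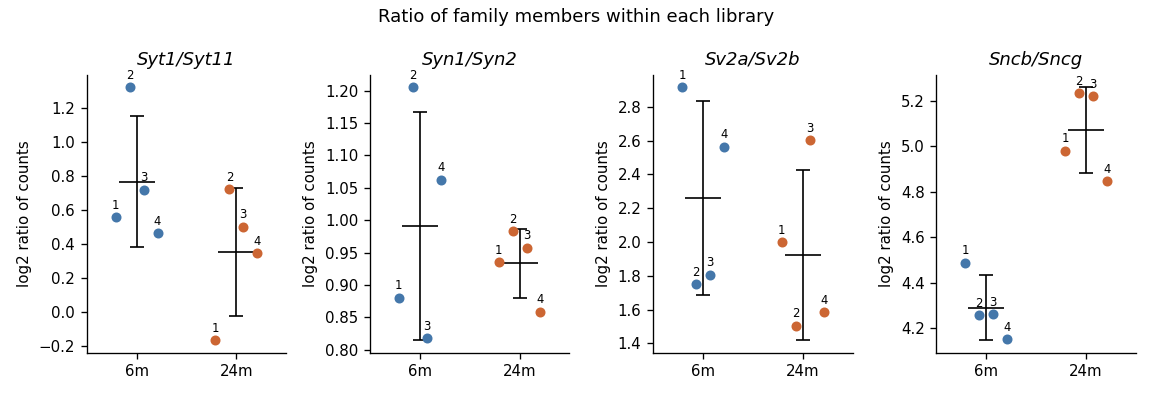
Log2 ratio of the counts of relatives in each library (vertical axes, which do not start at 0), at 6m (blue) and 24m (orange). Numbers are replicates, horizontal bars are means and error bars are SD. The ages are separated for Sncb/Sncg, with means of 4.29 and 5.07, and overlap for the other 3 pairs.

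The annotation (GENCODE, GRCm39) was used to see what the 9 genes share beyond their names. They lie on 7 chromosomes, with Syp and Syn1 on the X chromosome and Sv2a and Syt11 on chromosome 3. Canonical transcripts of the 9 genes had a median length of 4334 bases against 3120 for all tested genes, and a median GC content of 55.1% against 51.9%. Their lengths ran from 1381 bases for Sncb to 8312 for Sv2b. The annotated transcript of Sncg has 4645 bases, of which 369 are coding sequence, and the median of the 9 genes depends on such single entries. Across all 9349 tested genes with a length, Spearman's rho of transcript length and log2FC was 0.126, which is given as a description across genes that are not independent replicates. None of the 9 genes had a near-identical copy elsewhere (identity of at least 95% over at least 50% of the canonical transcript). No gene on the same strand shares their exons.

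Genes on the opposite strand overlap exons of 7 of the 9 genes, all but Syt1 and Sncb, and the counting is not stated to use strand. If it did not, reads from the shared exon stretches cannot be assigned to the gene or to its partner. Of the partners in the table, Timp4 (over Syn2) held 817 counts over the 8 libraries beside 1210 of Syn2, Araf (over Syn1) held 770 beside 2329, Bola1 (over Sv2a) held 391 beside 932, Rit1 (over Syt11) held 317 beside 369, and Mmrn2 (over Sncg) held 6 beside 304. Among these 5 genes, the partner held most relative to the gene's own counts for Syt11 and Syn2. Syt11, Syn1 and Syn2 each have a further partner (Gm66963, Gm61816 and Gm17733), which was not analysed here, as were not those of Syp (Gm14703) and Sv2b (1500012K07Rik).

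Other presynaptic genes were read from lists chosen by function. Of 88 listed genes that are not among the 9, all were in the table, 73 were tested, 14 were changed and upregulated, 3 were changed and downregulated and 56 were not called. The median log2FC of the 73 was 0.12. Counts of the single lists are to be read beside the 10.3% upregulated and 4.17% downregulated among all tested genes, and no difference between lists was tested. Of the 20 family relatives (further synaptotagmins, synaptophysin relatives, a synapsin, an SV2 protein and a synuclein), 14 were tested, 6 were changed and upregulated and 8 were not called, with a median log2FC of 0.49.

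Among these relatives, Syt13 rose from 34.1 ± 4.64 to 81.4 ± 14.5 CPM (log2FC 1.23, SE 0.179, edgeR adjusted p = 2.25e-05). Syngr3, a synaptogyrin of the vesicle membrane, rose from 79.6 ± 13.2 to 148.5 ± 32.0 CPM (log2FC 0.90, SE 0.158, edgeR adjusted p = 0.000246). The relatives of synaptophysin Synpr (log2FC 1.05, edgeR adjusted p = 0.0110) and Sypl1 (1.16, 0.0380) and the synaptotagmins Syt4 (1.00, 0.0117) and Syt7 (1.37, 0.0184), of which Syt7 is a slow calcium sensor, were called at mean counts of 32.9, 11.1, 18.1 and 9.50 per library. The most abundant relative by CPM was Syt5, with 266.5 ± 47.5 CPM at 6m, against 290.7 ± 33.4 CPM at 24m (log2FC 0.13, edgeR adjusted p = 0.485).

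Vesicular transporters and other proteins of the vesicle membrane numbered 18, of which 15 were tested, 4 were changed and upregulated and 11 were not called, with a median log2FC of 0.37. Scamp5, a secretory carrier membrane protein, rose from 49.2 ± 9.08 to 120.1 ± 27.4 CPM (log2FC 1.25, SE 0.182, edgeR adjusted p = 2.5e-05). Slc17a7, the vesicular glutamate transporter of cortical neurons, rose from 535.9 ± 40.1 to 805.6 ± 140.3 CPM (log2FC 0.58, SE 0.107, edgeR adjusted p = 0.000395), just past the fold limit. Rph3a, an effector of Rab3 proteins, and Slc6a17, a vesicular amino acid transporter, had log2FC of 0.96 (edgeR adjusted p = 0.00111) and 1.71 (edgeR adjusted p = 0.00231). The most abundant, Rab3a, a GTPase of the vesicle surface, was at 1408 ± 27.5 CPM at 6m, against 1320 ± 128.1 CPM at 24m and was not called (log2FC -0.09, edgeR adjusted p = 0.472). Slc17a8 had 0 counts in each of the 8 libraries.

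At the active zone vesicles dock and are primed. Of 23 listed genes of the active zone and of priming 18 were tested, 1 was changed and upregulated and 2 were changed and downregulated, with a median log2FC of -0.00. Bsn, the active zone scaffold Bassoon, was the gene called upregulated; it held 2 to 3 counts in each young adult library and 10 to 18 in each aged library, too few for a fold change to be given. Pclo, the scaffold Piccolo, fell from 28.4 ± 13.8 to 12.6 ± 5.16 CPM (log2FC -1.32, SE 0.337, edgeR adjusted p = 0.00663), and Cacna1b, the pore of N-type calcium channels, had a log2FC of -1.01 (SE 0.355, edgeR adjusted p = 0.0425). For both Pclo and Cacna1b the libraries of the ages overlapped, at mean counts of 16.5 and 11.75 per library. Cadps, the most abundant of this list, had 78.4 ± 11.4 and 77.8 ± 9.59 CPM (log2FC 0.01, edgeR adjusted p = 0.967).

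Of 27 genes of vesicle endocytosis 26 were tested, 3 were changed and upregulated and 1 was changed and downregulated, shares near those of all tested genes, with a median log2FC of 0.02. Those upregulated were Ap2b1, a subunit of the clathrin adaptor AP2 (log2FC 0.84, edgeR adjusted p = 0.00242), Dnajc6, the uncoating protein auxilin (1.20, 0.00723), and Pacsin1 (0.79, 0.00957). Dnm3, a dynamin, fell from 31.7 ± 10.1 to 14.9 ± 2.59 CPM (log2FC -1.11, edgeR adjusted p = 0.00419). Dnm1, the abundant neuronal dynamin, had 1157 ± 60.7 and 1175 ± 46.8 CPM (log2FC 0.02, edgeR adjusted p = 0.882).

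**Figure D4:**
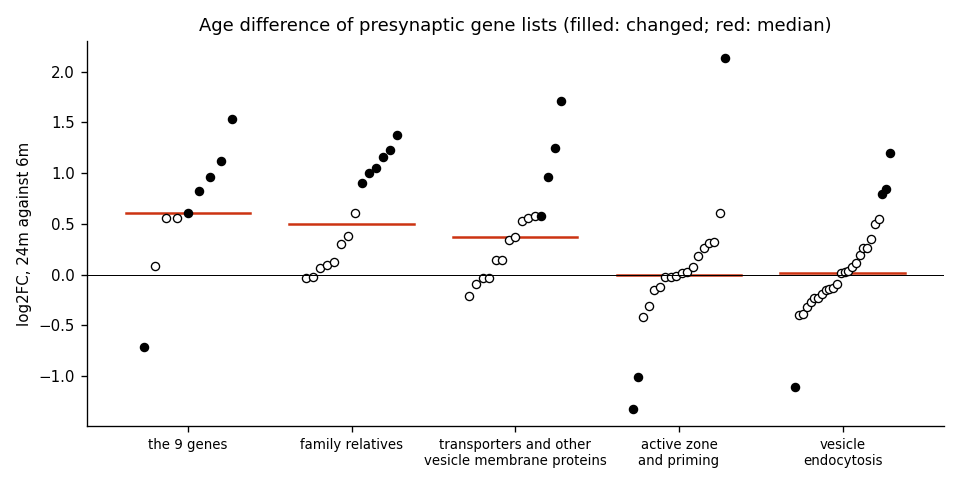
Log2FC of 24m against 6m (vertical axis) for each tested gene of the 9 genes and of 4 lists, ordered from low to high within a list. Filled points were called changed, open points were not, and red lines are medians, at 0.61, 0.49, 0.37, -0.00 and 0.02 from left to right. The highest point of the active zone list is Bsn, whose young adult libraries held 2 to 3 counts, so its height is not a measured fold change.

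Markers of cell types were summed in each library to set beside these results, and their part in the results was not tested. Counts of called markers, here and in the marker lists below, are to be read beside the 10.3% upregulated and 4.17% downregulated among all tested genes. All 10 pan-neuronal markers were tested, and their summed CPM were 4531, 4743, 4692 and 4723 at 6m and 5019, 5127, 5106 and 4992 at 24m. The sums were separated by age, from a mean of 4672 to 5061 CPM, but overlapped when Snap25 or Eno2 was left out of the sum. Of these markers, 2 of the 10 were called upregulated, and the most abundant, Uchl1, was not called but was lower in every aged library, with 1813 ± 82.4 CPM at 6m, against 1573 ± 21.9 CPM at 24m. Sums of the 5 glutamatergic markers were 661, 606, 709 and 683 at 6m and 881, 1002, 1143 and 815 at 24m, with 1 of 4 tested markers called upregulated, Slc17a7, which is also the most abundant. Without Slc17a7 the glutamatergic sums overlapped between the ages. Sums of the 5 GABAergic markers were 2102, 1826, 1831 and 2003 at 6m and 2085, 1747, 1798 and 1852 at 24m, overlapping between the ages, with 1 of 5 called upregulated and Pvalb the most abundant.

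Markers of brain regions were summed in the same way, and their part in the results was likewise not tested. Brainstem, catecholaminergic, serotonergic and cholinergic markers, of which 4 of 9 were tested, summed to 88.6, 75.9, 88.4 and 84.1 CPM at 6m, against to 67.1, 59.3, 69.1 and 95.1 CPM at 24m. In this list 1 marker was called upregulated and 1 downregulated, and Th was the most abundant. Sums of the 5 cerebellar markers overlapped between the ages, with 774, 483, 426 and 554 CPM at 6m, against 899, 767, 678 and 600 CPM at 24m, with 2 of 5 called upregulated and Pcp2 the most abundant. Without Pcp2 the cerebellar sums were higher in every aged library (238 to 299 CPM) than in any young adult library (116 to 224 CPM).

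Glial sums were higher at 24m, and those of astrocytes were separated by age only with Gfap included. The 6 astrocyte markers summed to 287, 280.3, 261 and 339 CPM at 6m, against 488, 506, 557 and 435 CPM at 24m, with 3 of 5 tested markers called upregulated and 1 called downregulated. Without Gfap the sums overlapped, with 210 to 265 CPM at 6m, against 221 to 289 CPM at 24m. At 24m Gfap was the most abundant of these markers (61.5 ± 14.8 CPM at 6m, 237 ± 47.6 CPM at 24m), and at 6m it was Aldh1l1 (134 ± 11.4 and 106 ± 16.4 CPM). Besides Gfap, Slc1a3 and Gja1 were called upregulated and were higher in every aged library. Slc1a3 went from 24.7 to 76.3 CPM (log2FC 1.65, edgeR adjusted p = 5.17e-06) and Gja1 from 12.5 to 32.9 CPM (log2FC 1.42, edgeR adjusted p = 0.00127). Aldh1l1 (log2FC -0.36, edgeR adjusted p = 0.0620, not called) and Slc1a2 (log2FC -0.59, edgeR adjusted p = 0.0131, called downregulated) were lower in every aged library. Oligodendrocyte markers summed to 2278, 1870, 1973 and 2437 CPM at 6m, against 3448, 3095, 3412 and 2556 CPM at 24m, with 2 of 6 called upregulated and Mbp the most abundant. Microglia markers summed to 519, 544, 558 and 568 CPM at 6m, against 915, 688, 741 and 667 CPM at 24m, with 1 of 5 tested markers called upregulated and C1qa the most abundant. The oligodendrocyte and microglia sums did not overlap between the ages, also with any marker left out.

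Vascular and blood sums had lower means at 24m, as did Sncg, but overlapped between the ages. Endothelial markers summed to 117, 85.0, 112 and 105 CPM at 6m, against 91.5, 67.6, 90.9 and 62.1 CPM at 24m, of which 2 of 4 were tested, the most abundant, Ly6c1 (log2FC -0.58, just short of the fold limit, edgeR adjusted p = 0.0150), and Cldn5 (log2FC -0.45, edgeR adjusted p = 0.256). Without Cldn5 the endothelial sums were lower in every aged library (43.7 to 67.8 CPM) than in any young adult library (72.3 to 84.9 CPM). Blood markers summed to 6998, 7943, 10032 and 6090 CPM at 6m, against 6283, 3958, 4476 and 3350 CPM at 24m, with 5 of 5 called downregulated and Hba-a1 the most abundant. No marker in these 10 lists was at 0 in all libraries. Mitochondrially encoded genes held 10.2%, 10.1%, 10.9% and 8.67% of the counts at 6m and 6.48%, 8.63%, 7.92% and 8.94% at 24m, which overlapped, with the aged replicate 1 the lowest. The part of these values in the results was not tested.

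**Figure D5:**
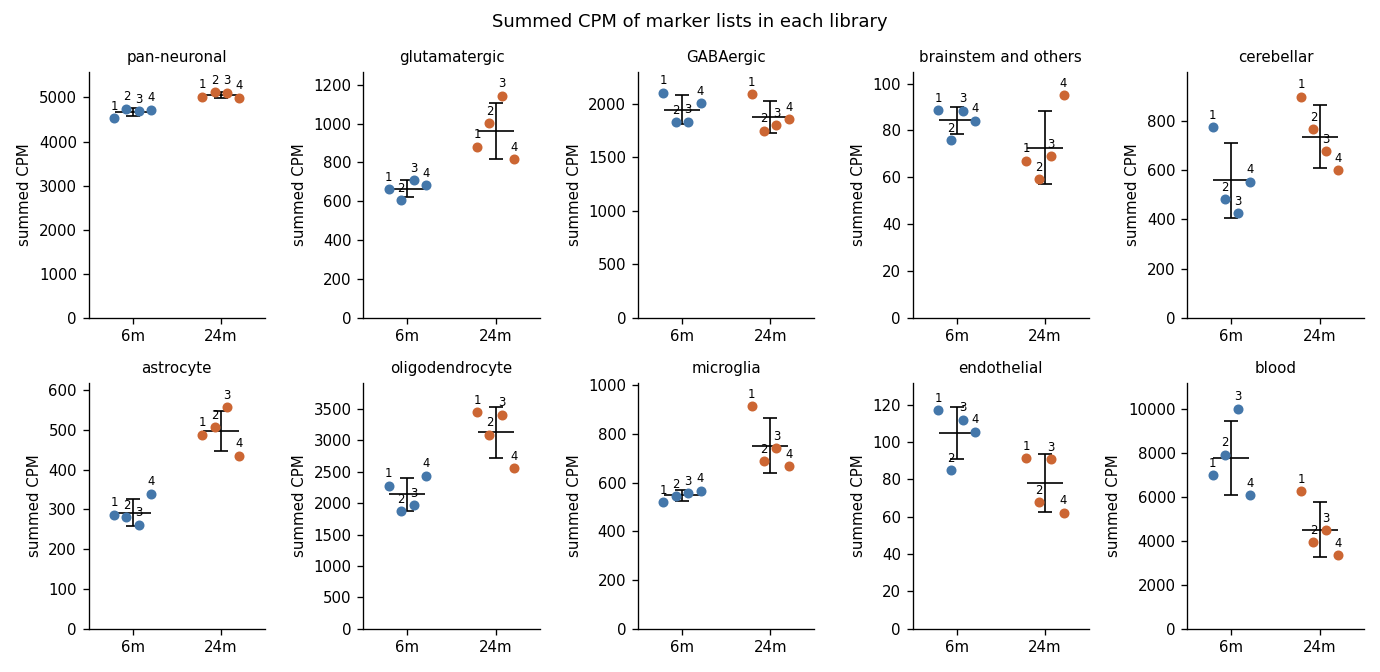
Summed CPM of each marker list (vertical axes, from 0) in the 4 libraries of 6m (blue) and the 4 of 24m (orange). Numbers are replicates, horizontal bars are means and error bars are SD. The sums of oligodendrocyte and microglia markers were higher in every aged library than in any young adult library, also with any marker left out. So were those of astrocyte, pan-neuronal and glutamatergic markers, but these overlapped without Gfap, without Snap25 or Eno2, and without Slc17a7.

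For each changed gene, the genes outside the 9 with the most similar pattern were taken by Pearson's r of log2 CPM over the 8 libraries, among 2720 genes with a mean count of at least 50. Here r takes in the difference between the ages and the spread within an age, which were not separated, and it is a description with no p. Syn2 was most similar to Sirpa (r = 0.991, log2FC 1.10) and Abr (r = 0.988, log2FC 1.49), Sv2a to H1f0 (r = 0.982, log2FC 0.77) and Zmiz2 (r = 0.980, log2FC 0.87), and Syp to Cadm3 (r = 0.981, log2FC 0.67) and Jph3 (r = 0.979, log2FC 1.01). Genes similar by r can differ in the size of the age difference: Sv2b was most similar to Cxxc5 (r = 0.962, log2FC 0.47) and Pigt (r = 0.959, log2FC 0.65), and Syt11 to Tusc2 (r = 0.956, log2FC 0.22) and Plekhb2 (r = 0.942, log2FC 1.70). Sncg was most similar to Rpsa (0.985) and Pex6 (0.984), whose log2FC were -0.42 and -0.62.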

How the data were processed

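ONT reads of brain hemispheres of 4 young adult and 4 aged male mice were mapped by the authors to GRCm39 with minimap2 (2.24 per the labels) and assigned to genes with featureCounts. The deposited table holds these raw counts, before any filter or normalization, and strand and multi-mapping settings are not given in the sources used here. All 8 columns were matched to samples by their labels. Of the 22430 identifiers, 22281 were matched to GENCODE vM39 on the same build; 149 were kept without a name.

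The main test was made with edgeR 4.0.16 in R 4.3.3 (TMM factors, quasi-likelihood test with age as the only term, Benjamini-Hochberg adjustment over 9375 genes with a mean count over 5). Standard errors come from the log2FC and the F statistic. A prior count of 2 was used for log2 CPM. Alternatives used DESeq2 1.42.0, limma 3.58.1, other scalings and filters, a replicate block and each library left out. Near-identical copies were searched with BLAST+ 2.17.0. The tests were checked on simulated counts with 200 changed genes, at an absolute log2FC of 1 or 2. At 1, edgeR recovered 84.8% of the changed genes tested and DESeq2 63.8%. Changes near the fold limit were not simulated, so calls there were not checked in this way. p-values set the difference between the ages against the spread between the libraries of an age. As each mouse has its own library, that spread mixes differences between mice with those between library preparations.

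The 9 genes and the lists were chosen with earlier results of these data known. Genes named from the lists are the called ones, at most 6 per list by smallest adjusted p, and the most abundant of each list. Genes with at most 3 counts in every library of an age get no fold change. Overlapping partner genes, ratios within families, levels per coding length and promoter windows were added after the values of the 9 genes had been seen.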

Additional observations from a re-analysis of the deposited data

Results flagged for a closer look

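Among 22 groups of 4 libraries (the CPM of each of the 9 genes, their summed CPM and the library totals, at each age), 2 held a library far from the others by Dixon's ratio of the gap to the whole range, at its critical value for groups of 4. Chance gives such a library in about 1 in 20 groups. In both cases it was the young adult replicate 2. Its CPM of Syt11 was below that of the other young adult libraries, with a ratio of 0.837, and without it Syt11 was still called upregulated, with a log2FC of 0.65 (edgeR adjusted p = 0.0137). Its total of 573152 counts was below the other young adult totals, with a ratio of 0.909. Without it, 6 of the 9 genes were called upregulated (5 relative to the median of all genes tested in that fit) and 1 downregulated.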

How the results depend on the processing

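The log2FC of the 9 genes under 16 alternatives gave 144 values, and each had the direction of the value reported. Relative to the median of all genes tested in the same fit, Sncb without the aged replicate 1 turned from just above 0 to just below it (log2FC 0.00 and -0.00), and no other value turned. Of these, 130 were on the same side of the limits for calling, 13 became calls and 1 call was lost. Relative to the median of all genes tested in the same fit, 4 of the 13 were short of the fold limit: Syt1 (0.57) and Syn1 (0.56) with library sizes alone, where the median is 0.10, Syt1 with no filter (0.55, median 0.03) and Syn1 without the aged replicate 1 (0.577, median 0.00). So was the call of Syn2 without the young adult replicate 2 (0.575, from 0.585). Syt1 became a call with library sizes alone (log2FC 0.67), with no filter (0.58) and with more than 5 counts in every library (0.61), and ran from 0.48 to 0.73 with a library left out. Syn1 became a call with quantile normalization in DESeq2 (0.63) and limma-voom (0.62), with library sizes alone (0.67) and with more than 5 counts in every library (0.61), and ran from 0.50 to 0.65 with a library left out. Syn2, called at 0.61, ran from 0.55 to 0.67 with a library left out, and the call was lost without the aged replicate 3. These genes lie close to the fold limit, and beyond that the cause was not tested. The adjusted p of Syt1 was over 0.05 in 9 of 16 alternatives. The number of upregulated genes among the 9 ran from 4 to 7, also relative to the median (with library sizes alone, 7 became 5), and 1 was downregulated in each alternative. With an adjusted p alone, 7 were higher and 1 lower.

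Of all tested genes, 968 were called upregulated and 391 downregulated. DESeq2 on raw counts called 629 and 205, DESeq2 after quantile normalization called 547 and 272, library sizes alone gave 1218 and 223, more than 5 counts in every library (fewer genes tested) gave 728 and 222, and an adjusted p alone gave 1155 and 883. The cause of the other differences was not tested.

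Same-numbered libraries of the ages did not deviate together (correlations of deviations from -0.16 to 0.06), and the main fit did not pair them. These few correlations cannot exclude a step that same-numbered libraries shared. With a replicate block, 5 of the 9 genes were called upregulated and 1 downregulated, and 940 and 368 of all tested genes. The block changed no call among the 9 genes, for instance with a log2FC of 1.13 for Sv2a and -0.71 for Sncg. Depth limits Sv2b, Syt11, Sncg and Syt1 most, with young adult libraries of 10 to 56 counts.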
